A study of Mus musculus with 9 samples.

Results

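Transcript levels of mouse eggs lacking Dicer were set against those of wild-type eggs, on 3 arrays each. These 6 arrays, chosen by the genotype in their titles, are part of a series of 9. The other 3 hold eggs lacking Dgcr8. They enter here through the shared estimate of spread, as a second measure of signal level, and as values beside those of called genes and lists. Every egg was at metaphase II, the stage at which an ovulated egg waits for fertilization, and all groups were labelled C57BL/6. Donors of every group were superovulated with 7.5 IU of PMSG followed by 7.5 IU of hCG, and eggs were flushed from oviducts taken 14 to 16 h after hCG. Hyaluronidase at 0.3 mg/ml and washing removed the cumulus cells, and total RNA from a PicoPure kit received a biotin label. The way each gene was deleted, the age of the females, and the number of eggs and females behind an array were not given in the sources used here, so neither the cells in which it was deleted nor the pooling can be stated. The labels call the arrays biological replicates without saying whether they came from separate females, so the p-values measure the spread between these samples.

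Dicer is the ribonuclease that cuts microRNA hairpins and long double-stranded RNA into short RNAs. Growing mouse oocytes carry long double-stranded RNA formed from pseudogenes, repeats and overlapping transcripts, and Dicer turns it into endogenous small interfering RNAs that guide the cleavage of matching transcripts. Dgcr8 acts earlier, on primary microRNA transcripts, and is not needed for those interfering RNAs.

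The values are log2 signals, made by the authors with GCRMA, so a difference of 1 is a 2-fold change. They are relative between arrays: a change common to all transcripts would not show. Of 21789 probe sets that name exactly 1 gene, 18815 reached a log2 signal of 4 in at least 3 of the 6 arrays and were tested with limma. The other 2974 fell under that floor. Array medians over the tested probe sets were 6.48 to 6.50. Correlations between arrays were 0.9942 to 0.9953 among wild-type eggs, 0.9907 to 0.9921 among Dicer knockout eggs, and 0.9762 to 0.9832 between the groups. With 3 arrays a group, the median 95% half-width of a log2 difference was 0.23.

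The targeted gene was lower in the knockout but well detected. Dicer1 read 11.66, 11.67 and 11.67 in wild-type eggs and 10.82, 10.77 and 10.57 in knockout eggs. The groups did not overlap, and Dicer1 fell by 0.95 ± 0.06 (SE, limma adjusted p = 1.23e-05). Whether its probes lie within the deleted part was not tested. Tstd3, which encodes a protein with a rhodanese-type domain, read 4.78, 5.06 and 4.32 in wild-type eggs against 10.16, 9.65 and 10.08 in knockout eggs. Its rise of 5.25 ± 0.21 (adjusted p = 1.32e-06) had the largest size among the genes named here. Rangap1, the activator of the Ran GTPase and a reported target of endogenous small interfering RNAs, stood at 6.85, 6.58 and 6.55 against 9.41, 9.14 and 9.14, a rise of 2.57 ± 0.12 (adjusted p = 1.59e-06).

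A probe set was called at a limma adjusted p under 0.05 (Benjamini-Hochberg over all probe sets tested). Of the 18815, 2131 (11.3%) were called, with 973 higher (5.17%) and 1158 lower (6.15%) in Dicer knockout eggs. Increases were the larger ones: the median called increase was 0.79 and the median called decrease -0.48. At 2-fold or more, 355 were higher (1.89%) and 94 lower (0.5%). At 4-fold or more the counts were 59 and 4, and at 8-fold or more 13 and 1. The 3 values of each group did not overlap for 2124 of the called probe sets, and did so for 4960 (26.4%) of all tested. For 2115 (99.2%) of the called probe sets, the Dgcr8 knockout mean lay within 0.5 of the wild-type mean, which is itself a part of the contrast. That share was not computed over all probe sets tested, so it cannot be read as particular to the called ones. At an adjusted p under 0.01, 1058 (5.62%) were called. The number of calls depended on wild-type replicate 3, without which 1355 were called. Calls of lower probe sets numbered 744, 713 and 651 without wild-type replicate 1, 2 and 3 in turn.

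Rising and falling genes were then compared at matched signal, taken as the mean of the 2 group means. Under a log2 signal of 6, 124 probe sets were called higher (1.58%) and 113 lower (1.44%) of 7847. Between 6 and 8 the counts were 324 (6.54%) and 346 (6.99%) of 4951, and between 8 and 10 they were 351 (8.85%) and 472 (11.9%) of 3964. At 10 and over, 174 were higher (8.48%) and 227 lower (11.1%) of 2053. The share called in either direction was thus highest between 8 and 10 and lowest under 6, and the difference in size between increases and decreases was present in every band. The median called increase was 0.80, 0.86, 0.79 and 0.56 from the dimmest to the brightest band, and the median called decrease was -0.60, -0.65, -0.45 and -0.27.

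The balance between the directions turned on which arrays defined the signal. With the mean of both groups, 52.3% of the calls were increases in the dimmest band and 43.4% in the brightest. With the Dgcr8 knockout arrays, which are outside the contrast, they were 70.1% and 29.6%. Calls of at least 2-fold leaned to increases by either measure. Banded by the Dgcr8 knockout arrays they numbered 83 higher and 6 lower under 6, 140 and 53 between 6 and 8, 121 and 30 between 8 and 10, and 11 and 5 at 10 and over.

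**Figure D1:**
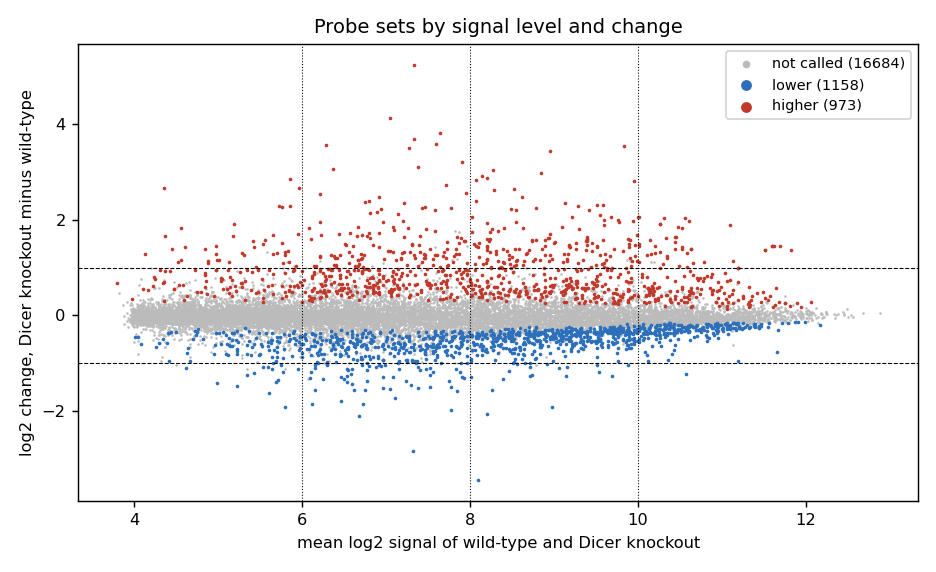
Log2 difference (Dicer knockout minus wild-type) of each tested probe set against its log2 signal, the mean of the 2 group means, with called probe sets coloured by direction. The called increases reach further from 0 than the called decreases at every level of signal, and both spread less at the bright end, where the medians of the calls are 0.56 and -0.27.

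The genes with the largest differences were taken band by band, so that dim genes do not stand for all. Among dim probe sets (signal under 6), the largest increase was that of Slc7a3, a transporter of cationic amino acids. It read 4.62, 4.20 and 4.47 in wild-type eggs and 7.53, 7.26 and 7.06 in knockout eggs, a rise of 2.85 ± 0.15 (adjusted p = 3.16e-06). Rhox10, a reproductive homeobox gene, rose by 2.67 and L3hypdh, a hydroxyproline dehydratase, by 2.29. Olfr1173, an olfactory receptor gene, was also called higher, but it read 2.96, 3.28 and 2.79 in wild-type eggs and passed the floor of 4 only through the knockout arrays (5.65, 5.40 and 6.00). The other 3 genes stood between 4.20 and 4.93 in every wild-type array, near the floor, and their groups did not overlap. The largest decreases in this band were those of Ddx60, an interferon-induced helicase (-1.92), Mdga2, a synaptic adhesion protein (-1.62), Cnga1, a subunit of the rod photoreceptor channel (-1.47), and Prkg2, a cGMP-dependent kinase (-1.42).

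At signals of 6 to 8, Radx, a protein that binds single-stranded DNA, rose by 3.81, Saxo1, a microtubule-associated protein of cilia, by 3.69, and B4galnt2, a glycosyltransferase, by 3.58. Their wild-type means of 5.73, 5.50 and 5.80 stood against knockout means of 9.55, 9.19 and 9.39. The decreases of this band were led by Olfr1463 (-2.85) and by Plek, the cytoskeletal protein pleckstrin (-2.11), followed by Lrrtm3, a synaptic leucine-rich repeat protein (-1.98). Ptpn3, a tyrosine phosphatase, fell by 1.86, and was the gene of these 4 whose Dgcr8 knockout mean (7.03) lay furthest from its wild-type mean (7.66).

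Between 8 and 10, Mt1, a metal-binding metallothionein, read 7.95, 8.07 and 8.16 in wild-type eggs and 11.44, 11.66 and 11.73 in Dicer knockout eggs. It rose by 3.55 ± 0.08 (adjusted p = 4.17e-08), and the Dgcr8 knockout mean was high as well, at 11.48. Pip4p2, a phosphoinositide phosphatase, rose by 3.45, Zfp473, a zinc finger gene, by 3.05, and Myot, a protein of the muscle Z-disc, by 2.99. The Dgcr8 knockout means of these 3 genes were 7.12, 6.96 and 7.24, against wild-type means of 7.24, 6.74 and 7.35. A pair of olfactory receptor entries led the decreases. Olfr1300-ps1, a pseudogene, read 9.64, 9.92 and 9.91 in wild-type eggs and 5.44, 7.30 and 6.38 in knockout eggs, which overlap nowhere although the knockout values were wide apart (SD 0.93). It fell by 3.45 ± 0.36 (adjusted p = 0.000254), followed by Olfr214 (-2.06), the nucleosome-binding Hmgn5 (-1.33) and Mtss1, a protein that bends membranes (-1.28).

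Among the brightest probe sets (10 and over), the leading increases were small proteins of the ribosome and mitochondria. A probe set of Rpl27a rose by 2.06, Rplp1, of the ribosomal stalk, by 2.04, and Atp5mpl, a subunit of ATP synthase, by 1.97. Dppa5a, an RNA-binding protein of pluripotent cells, followed at 1.89. The decreases were no larger than those of Kbtbd6, an adaptor of the CUL3 ubiquitin ligase (-1.22), Dicer1 itself, Sestd1, a SEC14-domain protein (-0.95), and Ifitm6, of the interferon-induced transmembrane family (-0.93). All 33 genes named by band or as markers stayed called at the threshold of 0.05 under every alternative that tested their probe set. Some probe sets, such as those of Olfr1173, Cnga1 and Prkg2, were not tested under the higher floor of 6. Probes of large families, such as olfactory receptors and ribosomal proteins, may also bind close copies, which was not tested.

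Functions were described with 54 gene lists written from general knowledge of gene families and pathways, each gene taken once through its brightest probe set. By this measure 17248 genes were tested, 825 called higher (4.78%) and 1088 lower (6.31%). Since calls depend on signal, each list's count is set beside the count it would have if its members were called as often as all genes of their signal bands. These are descriptions, with no test of a list. The lists were chosen with earlier results of these data known, so their counts are no independent evidence. Members named beyond the 4 of each list with the lowest adjusted p were chosen after their values were seen. Banding by the Dgcr8 knockout arrays changed no such count in either direction by more than 2.7 genes.

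The genes of the response to amino acid shortage had the most calls among the stress lists. This response, run by the transcription factor ATF4, raises enzymes and transporters that restore amino acids. Of 33 members, 11 rose and 0 fell, against 1.9 and 2.6 at the rate of like signal. At an unadjusted limma p under 0.05, which 23.5% of all genes reached, the counts were 16 and 0. The median member's difference was 0.21, and the list medians of single arrays, relative to the wild-type mean, were 0.31, 0.16 and 0.26 in knockout eggs and 0.00 to 0.02 in wild-type eggs. So all 3 knockout arrays lay above all 3 wild-type arrays.

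Asns, which makes asparagine, read 5.55, 5.65 and 5.39 in wild-type eggs and 9.17, 9.18 and 8.76 in knockout eggs. It rose by 3.50 ± 0.16 (adjusted p = 1.69e-06). Fgf21, a secreted stress hormone, read 5.12, 4.80 and 4.93 against 7.23, 7.90 and 7.33, a rise of 2.54 ± 0.17 (adjusted p = 1.41e-05). With Slc7a3, these genes were clearly higher in each knockout array than in any wild-type array. Among them, Slc7a3 stood nearest the floor of 4 in wild-type eggs and Asns furthest above it. Shmt2, the mitochondrial serine hydroxymethyltransferase, rose by 1.08, Cth, which makes cysteine, by 0.96, Vldlr, a lipoprotein receptor, by 0.95, and Sesn2, an amino acid sensor, by 0.94. Smaller rises were those of Slc3a2, the heavy chain of amino acid exchangers (0.46), Aldh18a1, of proline synthesis (0.43), and Cebpg, a partner of ATF4 (0.29). Atf4 itself read 9.79, 9.73 and 9.85 against 10.33, 10.22 and 10.05, which did not overlap, and rose by 0.41 ± 0.09 (adjusted p = 0.0150). Whichever of the 6 arrays was left out, 8 of the 11 stayed called. The exceptions were Atf4 (adjusted p = 0.0616 without wild-type replicate 2), Cebpg (0.0783 without wild-type replicate 3) and Aldh18a1 (0.140 without wild-type replicate 1).

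Other well-known targets of the response did not pass the test. The 22 uncalled members ranged from -0.18 to 0.50. Mthfd2, of mitochondrial folate metabolism, differed by 0.22 (adjusted p = 0.0536), Chac1, a glutathione-degrading enzyme, by 0.32 (adjusted p = 0.0592), and Ddit3, the transcription factor CHOP, by 0.39 (adjusted p = 0.141). Differences of Trib3 (0.07), Atf3 (0.09) and Slc7a11 (0.05), a stress-induced pseudokinase, a transcription factor and the cystine exchanger, were smaller still. The differences were thus uneven across the members.

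Promoters of some called and some uncalled members carry the same short motif, and these 4, picked from those that hold it, show it side by side. The motif TGATGNAAN, the core that C/EBP and ATF factors bind together, was searched on both strands from 250 bases before to 50 after the first listed start in RefSeq (GRCm38.p6). It is in capitals, within 30 bases read 5′ to 3′ on the strand of the gene. The places are chr6:7693214-7693243 for Asns, chr7:45615612-45615641 for Fgf21, chr2:119351037-119351066 for Chac1 and chr1:191183426-191183455 for Atf3, all upstream of the start. Asns, Fgf21 and Atf3 lie on the minus strand and Chac1 on the plus strand.
Asns: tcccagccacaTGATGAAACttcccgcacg
Fgf21: aagacccccccATTGCATCAtccgtccagg
Chac1: ccttccctgccGTTGCATCActcctgccag
Atf3: cccttctcgcaCTTGCATCAccaagtccgc
Asns holds the motif as written and the other 3 genes hold it on the opposite strand. The log2 differences of these genes were 3.50, 2.54, 0.32 and 0.09 in the same order. In all, 8 of the 29 list members with a promoter in the table held the motif, among them 2 of the 9 called, against 4.04% of all 27025 promoters. Among all genes tested, 2.52% of those called higher, 2.12% of those called lower and 2.53% of those not called held it.

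**Figure D2:**
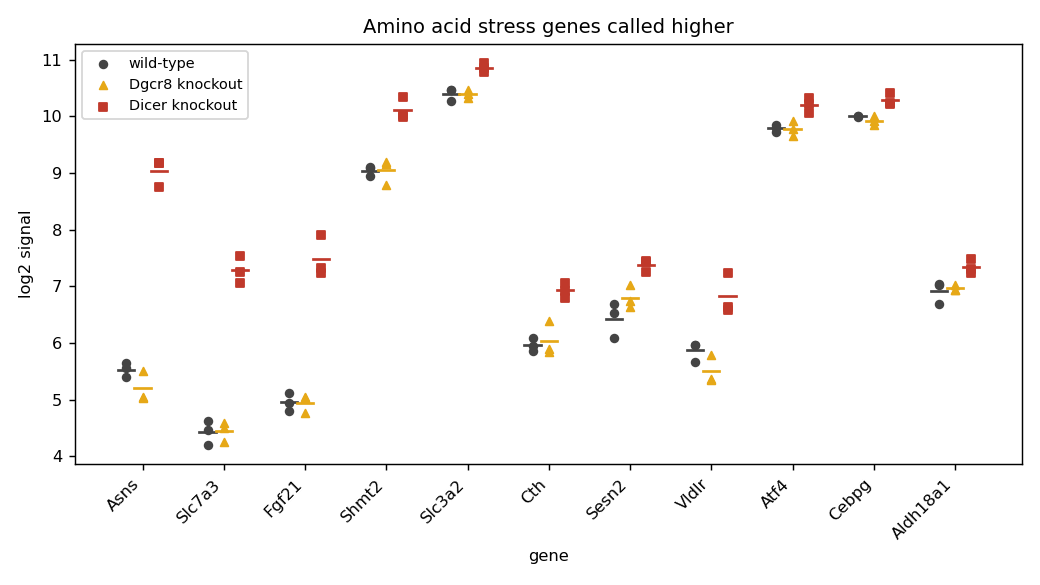
Log2 signal of the 11 called members of the amino acid stress response in each array (vertical axis), 1 point per array and a line at each group's mean, with the Dgcr8 knockout arrays shown beside. Asns, Slc7a3 and Fgf21 show the wide gaps between groups (3.50, 2.85 and 2.54), while Atf4 moves by 0.41, and no Dicer knockout point overlaps the wild-type points of its gene.

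The unfolded protein response, a neighbouring stress response of the endoplasmic reticulum that shares ATF4, went mostly the other way. Of 24 members, 6 fell and 1 rose, against 2.6 and 1.7 at the rate of like signal. Pdia4, a disulfide isomerase, read 10.57, 10.58 and 10.52 in wild-type eggs and 10.16, 10.08 and 10.19 in knockout eggs, and fell by 0.42 ± 0.06 (adjusted p = 0.00125). The chaperones Hyou1 (-0.34), Hsp90b1 (-0.31), Dnajc3 (-0.26) and Canx (-0.21) fell too, as did the sensor Ern1, known as IRE1 (-0.19). Dnajb9, another chaperone of this compartment, rose by 0.74. These decreases were small next to the rises of Asns or Fgf21, and the count depended on single arrays: Pdia4 and Canx were the members that stayed called whichever array was left out, and the highest adjusted p among the others was 0.0923 (Dnajb9, without wild-type replicate 3). Members called lower numbered 2 without wild-type replicate 2, 3 without wild-type replicate 3 and 2 with plain eBayes.

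Transporter genes were called higher more often than genes of like signal. Of 344 solute carrier genes, 25 rose and 19 fell, against 14.0 and 17.8 at the rate of like signal. Besides Slc7a3 and Slc3a2, rising members that carry amino acids or peptides included Slc15a2 (1.74), Slc15a1 (1.58), Slc7a8 (1.45), Slc1a5 (1.27) and Slc38a2 (0.91). They were singled out after their values were seen. Others that rose carry other cargo: Slc5a4b, of the sodium-glucose family, read 5.25, 5.44 and 5.47 against 7.30, 6.89 and 7.02, a rise of 1.69 ± 0.12 (adjusted p = 1.56e-05). Those that fell included the organic anion transporter Slco4c1 (-1.19), the magnesium transporter Slc41a1 (-0.99), the taurine transporter Slc6a6 (-0.62) and the amino acid transporter Slc43a1 (-0.52). Slc25a13 and Slc25a15, mitochondrial carriers of amino acids, fell too. Their differences were -0.86 to -0.64 and -0.45 to -0.34 as each array was left out, so carriers of amino acids did not all go one way. Of the 44 calls, 27 held whichever array was left out, and of the genes named here Slc43a1 was not among them (adjusted p = 0.143 without wild-type replicate 1). The number lower was 11, 11 and 9 without wild-type replicate 1, 2 and 3 in turn, 12 without Dicer knockout replicate 1, and 10 with only the 6 arrays of both groups in the fit. The list, built on the symbol, also takes in the scaffold protein Slc9a3r1, which is no transporter and was called lower.

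**Figure D3:**
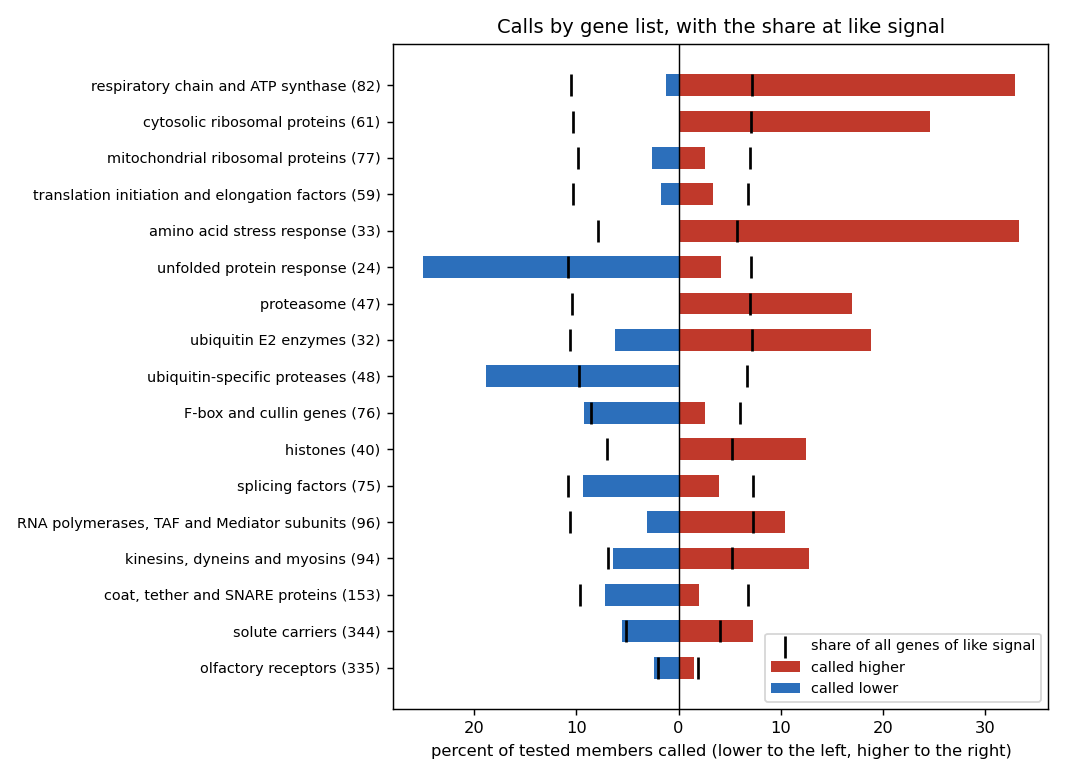
Percent of the tested members of each list called higher (right) and lower (left) as bars, for 17 lists, with marks for the percent called among all genes of like signal and the number tested in brackets. The respiratory chain, cytosolic ribosomal proteins and the amino acid stress response extend past their marks to the right (27, 15 and 11 members), and the ubiquitin-specific proteases and the unfolded protein response past theirs to the left (9 and 6).

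Calls among ubiquitin E2 enzymes leaned upward and calls among ubiquitin-specific proteases downward. E2 enzymes hand activated ubiquitin to its targets, and ubiquitin-specific proteases take it off again. Of 32 E2 genes, 6 rose and 2 fell, against 2.3 and 3.4 at the rate of like signal. Of 48 ubiquitin-specific proteases, 0 rose and 9 fell, against 3.2 and 4.7; at an unadjusted limma p under 0.05 the counts were 4 and 14. The ligases that act after the E2 enzymes did not lean upward: F-box and cullin genes had 2 higher and 7 lower of 76, against 4.6 and 6.5, and TRIM and RNF genes 7 higher and 7 lower of 127, against 6.6 and 9.0. The number of F-box and cullin genes lower was 1 to 4, and that of TRIM and RNF genes 3 to 4, when 1 of the 3 wild-type arrays or Dicer knockout replicate 1 was left out.

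Ube2r2, an E2 of the SCF ligases, read 6.92, 7.01 and 6.97 in wild-type eggs and 8.64, 8.36 and 8.49 in knockout eggs, a rise of 1.53 ± 0.10 (adjusted p = 1.35e-05). Ube2l3 rose by 1.48, Ube2v1, a partner in building lysine-63 chains, by 1.07, Ube2e2 by 0.68, Ube2c, of the anaphase-promoting complex, by 0.58, and Ube2f, a NEDD8 enzyme, by 0.55. Ube2u (-0.81) and Ube2h (-0.18) fell. The median over all 32 was -0.01, so the rises were those of single members and not of the family. Usp3, a histone deubiquitinase, read 10.80, 10.84 and 10.87 against 10.58, 10.50 and 10.54, and fell by 0.30 ± 0.05 (adjusted p = 0.00288). The other falls ran from -0.22 (Usp46) to -0.70 (Usp51), with Usp13 at -0.48, Usp45 at -0.42, Usp11 at -0.40, Usp33 at -0.36, Usp39 at -0.32 and Usp10 at -0.24. None of these 9 falls reached 2-fold, and for each gene the 3 knockout values lay below the 3 wild-type values. Whichever array was left out, 6 of the 9 proteases and 4 of the 8 E2 genes (Ube2r2, Ube2l3, Ube2v1 and Ube2c) stayed called. The highest adjusted p among the others was 0.132 for Usp13 without wild-type replicate 3 and 0.148 for Ube2e2 without wild-type replicate 2, which also left 0 E2 genes lower.

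**Figure D4:**
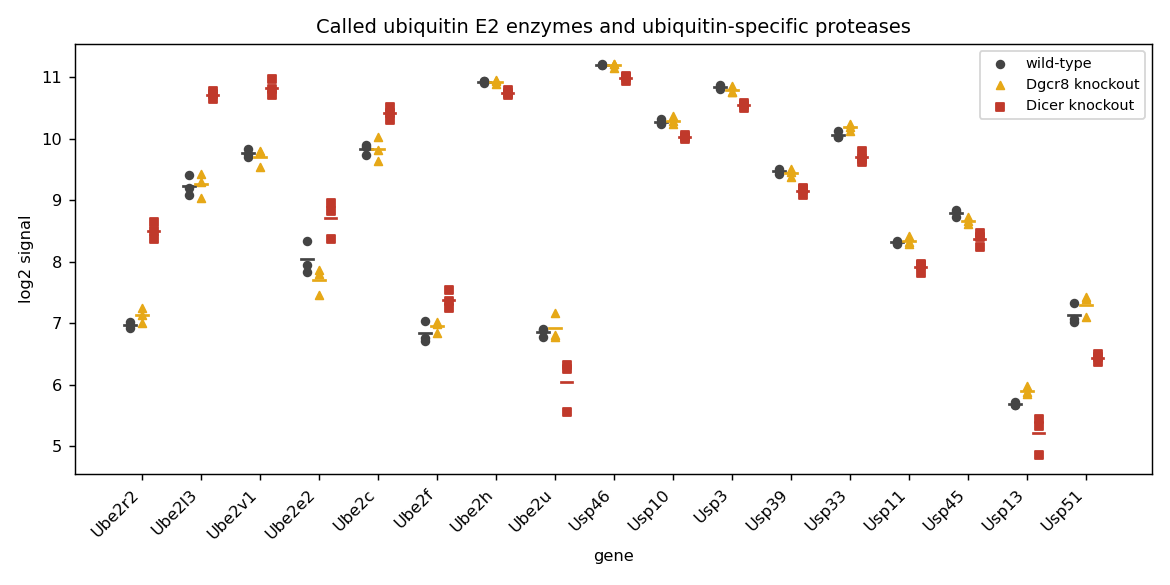
Log2 signal of called E2 genes and ubiquitin-specific proteases in each array (vertical axis), 1 point per array and a line at each group's mean, with the Dgcr8 knockout arrays shown beside. Ube2r2, Ube2l3 and Ube2v1 rise by more than the falls of any protease shown, of which Usp51 has the widest gap (-0.70).

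The proteasome, which degrades ubiquitinated proteins, had 8 of 47 members higher and 0 lower, against 3.3 and 4.9 at the rate of like signal, and at an unadjusted limma p under 0.05 the count lower was 1. Psmb5, a catalytic subunit, rose by 1.09, Psma5 by 0.71, Psmb4 by 0.69, Psmb6, another catalytic subunit, by 0.57, and the assembly factors Psmd9 and Psmg4 by 0.48 and 0.43. Psma4 (0.28) and Psma2 (0.22) rose least. Psmb6, Psmd9 and Psmg4 stayed called whichever array was left out, and the highest adjusted p among the others was 0.136 (Psmb5, without Dicer knockout replicate 1). The count was 5 without Dicer knockout replicate 1, 4 without wild-type replicate 3, and 5 with only the 6 arrays of both groups in the fit.

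Many genes of ribosomes and of the respiratory chain rose, unevenly between arrays. Of 61 cytosolic ribosomal protein genes, 15 rose and 0 fell, against 4.3 and 6.3 at the rate of like signal, and 2 were lower at an unadjusted limma p under 0.05. Rps2 read 10.90, 10.91 and 10.72 in wild-type eggs and 11.53, 11.56 and 11.53 in knockout eggs, a rise of 0.70 ± 0.05 (adjusted p = 2.71e-05). The brightest probe set of Rpl27a rose by 2.03, Rps28 by 1.40 and Rps6 by 0.58. The list medians of the 3 knockout arrays were 0.74, 0.29 and 0.12, and those of the wild-type arrays 0.16, 0.01 and -0.16. Knockout replicate 3 thus lay within the wild-type range. Without Dicer knockout replicate 1, 9 members were called higher, and without replicate 3, 23 were. Whichever array was left out, 9 of the 15 stayed called, including the 4 named above.

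Of 82 respiratory chain and ATP synthase genes, 27 rose and 1 fell, against 5.9 and 8.6 at the rate of like signal. Uqcr11, a small subunit of complex III, read 7.15, 6.71 and 6.10 against 9.75, 9.59 and 9.10, a rise of 2.83 ± 0.29 (adjusted p = 0.000263). Ndufa5, of complex I, rose by 1.90, Cox6a1, of complex IV, by 1.82, and Cox7a2, also of complex IV, by 1.45. Uqcrfs1, the Rieske protein of complex III, was the member that fell (-0.54). The array medians were 0.69, 0.51 and 0.14 in knockout eggs, and without knockout replicate 3 the number called higher was 43. Of the 28 calls, 18 held whichever array was left out, including the 5 members named in this list. Mitochondrial ribosomal proteins, although also encoded in the nucleus for the same organelle, had 2 higher and 2 lower of 77, against 5.4 and 7.6. Mrpl9 (1.49) and Mrpl19 (0.60) rose, and Mrpl58 (-0.54) and Mrps5 (-0.47) fell, although Mrpl19 (adjusted p = 0.0598) and Mrps5 (0.0682) were not called without wild-type replicate 2.

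**Figure D5:**
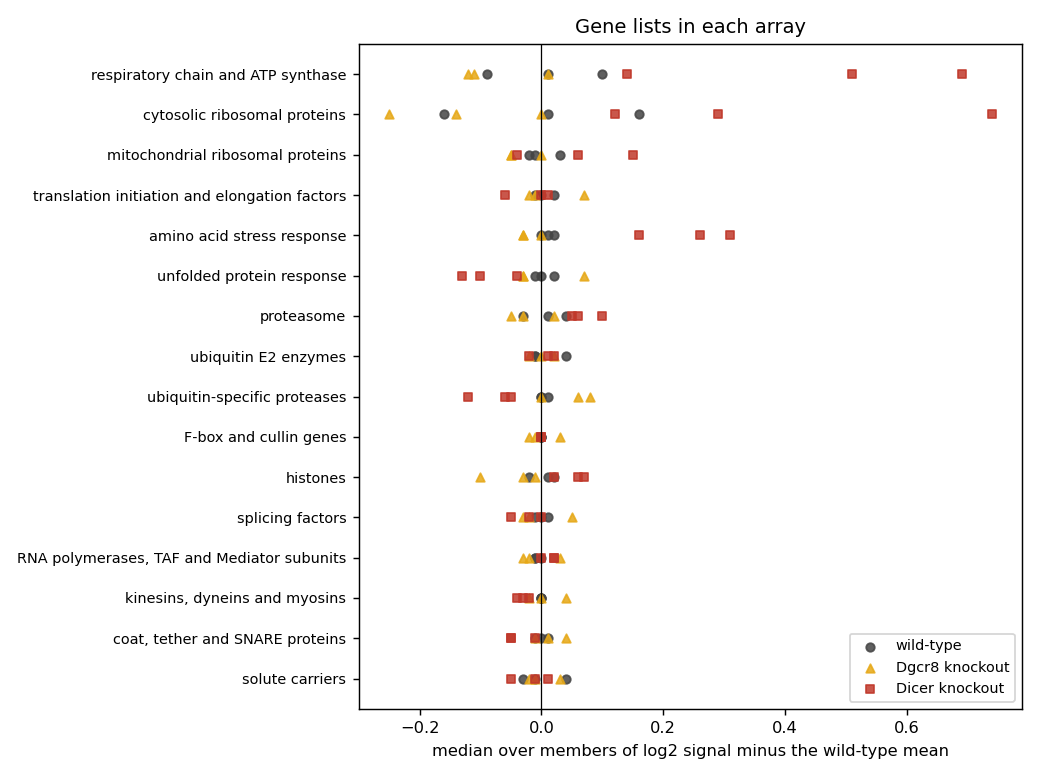
Median log2 value of each list's members in each array, relative to the wild-type mean (horizontal axis), 1 point per array for the 3 genotypes. The amino acid stress list lies at 0.16 to 0.31 in all 3 knockout arrays, whereas the ribosomal protein list runs from 0.12 to 0.74 among them and overlaps the wild-type arrays.

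Motor proteins of the cytoskeleton had more calls upward than genes of like signal. Among 94 genes of kinesins, dyneins and myosins, 12 rose and 6 fell, against 4.9 and 6.5. The median over all 94 was -0.05 and 36 lay above 0, so the rises were those of single members and not of the family. Myh10, a nonmuscle myosin II, read 7.23, 7.11 and 6.99 against 8.95, 8.39 and 8.56, a rise of 1.52 ± 0.18 (adjusted p = 0.000659). Several subunits of dynein and its partner dynactin rose, namely Dynlt3 (1.30), Dynll1 (0.60), Dctn3 (0.57), Dync1i2 (0.50) and Dync1h1 (0.48), while dynactin's Dctn6 fell (-0.39). Myo6, which walks to the pointed end of actin, rose by 1.29, and Kif4, a chromosome-bound kinesin and reported target of endogenous small interfering RNAs, by 0.74. Kif2c, which takes apart microtubules at kinetochores, rose by 0.44, and Myo1e (-0.86) fell. Of the 18 calls, 12 held whichever array was left out, but Dync1h1 (adjusted p = 0.117 without wild-type replicate 2) and Dctn6 (0.137 without Dicer knockout replicate 1) were not among them.

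Genes of vesicle traffic were called less often upward than genes of like signal. Of 153 coat, tether and SNARE genes, 3 rose and 11 fell, against 10.4 and 14.8. Sec24d, a cargo adaptor of the COPII coat, read 7.42, 7.18 and 7.39 against 6.52, 6.35 and 6.55, and fell by 0.86 ± 0.10 (adjusted p = 0.000507). The SNAREs Stx6 (-0.68) and Vamp4 (-0.49), the tethering subunit Trappc3l (-0.52) and the translocon partner Sec63 (-0.47) fell, while Trappc2l (1.28), the SNARE Vamp3 (0.62) and Vps13b (0.42) rose. Of the 14 calls, 6 held whichever array was left out, and Stx6 (adjusted p = 0.120 without Dicer knockout replicate 1), Vamp4 (0.0649 without wild-type replicate 3) and Vps13b (0.0514 without wild-type replicate 1) were not among them. The number lower was 6, 5 and 4 without wild-type replicate 1, 2 and 3 in turn, and 4 with only the 6 arrays of both groups in the fit.

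Genes of the interferon response and of the sensing of double-stranded RNA, the substrate that Dicer cuts, were called in both directions. Of 27 interferon and double-stranded RNA response genes, 5 fell and 2 rose, against 1.4 and 1.1 at the rate of like signal. Ddx60 read 7.14, 6.80 and 6.32 in wild-type eggs and 4.87, 4.87 and 4.77 in knockout eggs, and fell by 1.92 ± 0.23 (adjusted p = 0.000634). Tlr3, an endosomal receptor of double-stranded RNA, read 7.02, 7.16 and 6.74 against 6.10, 6.13 and 6.13, and fell by 0.85 ± 0.12 (adjusted p = 0.00149). Oas1f (-0.68), Oas1b (-0.46), of the oligoadenylate synthetase family, and the transcription factor Stat2 (-0.48) fell. Oas3 (0.60) and Oas1e (0.17), members of the same family, rose, so its members did not go one way. Ddx60 and Tlr3 stayed called whichever array was left out, and the highest adjusted p among the others was 0.166 (Oas1b, without wild-type replicate 2). The number lower was 2 without wild-type replicate 1, and 3 without wild-type replicate 2, wild-type replicate 3 or Dicer knockout replicate 2, and the number higher was 0 without wild-type replicate 1, wild-type replicate 3 or Dicer knockout replicate 1.

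All 5 genes of a list of reported endogenous small interfering RNA targets rose, against 0.4 at the rate of like signal. That list was drawn from earlier work on Dicer-deficient oocytes and is no independent evidence of direction. Hdac1, a histone deacetylase, rose by 2.21 and Ppp4r1, a phosphatase regulator, by 1.57, beside Rangap1 and Kif4. Of 143 tested probe sets of microRNA genes, 0 were called in the limma fit and 0 with plain eBayes, against 4.5 higher and 5.1 lower at the rate of like signal. An unadjusted p under 0.05 was reached by 10 of them (3 higher and 7 lower). Among the small RNA machinery, Tsnax, a subunit of the nuclease C3PO, rose by 1.39, and Snd1, a tudor-domain nuclease, fell by 0.36 (adjusted p = 0.0552 without wild-type replicate 3).

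Genes of the egg itself were called about as often as genes of like signal. Of 47 oocyte and egg genes, 5 rose and 3 fell, against 3.5 and 5.4. The number higher was 1 without Dicer knockout replicate 1, wild-type replicate 2 or wild-type replicate 3, 2 without wild-type replicate 1, 3 without Dicer knockout replicate 2 and 9 without Dicer knockout replicate 3. Khdc3, of the subcortical maternal complex, rose by 1.14, Nlrp4c by 0.68, and the germ cell helicase Ddx4 by 0.62. Zp2, a zona pellucida protein, read 11.42, 11.42 and 11.29 against 11.93, 11.86 and 11.56, a rise of 0.40 ± 0.09 (adjusted p = 0.0218). Kit, the receptor of stem cell factor, fell by 0.36. Of the 8 calls, those of Kit, Nlrp4c and Nlrp9c held whichever array was left out, and the highest adjusted p among the others was 0.160 (Khdc3, without wild-type replicate 3). Histone genes had 5 of 40 higher and 0 lower, against 2.1 and 2.8, with 4 lower at an unadjusted limma p under 0.05; H1f2, a linker histone, rose by 1.65 and H2ax, a variant phosphorylated at DNA breaks, by 1.44. RNA polymerase, TAF and Mediator subunits had 10 higher and 3 lower of 96, against 7.0 and 10.2, and 6 were higher without wild-type replicate 2, wild-type replicate 3 or Dicer knockout replicate 1. Polr3f (0.86) and Polr3a (0.57), both of RNA polymerase III, rose. So did Polr1b, of RNA polymerase I, and Polr2a, Polr2d and Polr2j, of RNA polymerase II. Polr3f, Polr3a and Polr2j stayed called whichever array was left out, unlike Polr1b, Polr2a and Polr2d.

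Markers of other cells were set beside these results. All 15 oocyte markers had wild-type means of at least 6, and their summed level (log2 of the sum of linear signals) was 15.58 to 15.62 in wild-type and 15.60 to 15.73 in knockout eggs. The summed level of 16 cumulus and granulosa markers was 9.52 to 9.62 in wild-type eggs and 9.76 to 9.92 in knockout eggs, with 15 of the 16 under a mean of 6 in wild-type eggs. Of these 1 rose, the transcription factor Gata4 (0.59), and 0 fell; at an unadjusted limma p under 0.05, 2 were higher and 2 lower, beside 23.5% of all genes tested. The sum of 8 immune and blood markers was 8.14 to 8.40 against 8.41 to 8.95, with 1 called, the macrophage protein Cd68 (0.96). The sum of 10 oviduct markers was 10.36 to 10.43 against 10.04 to 10.22, with 1 called, the smooth muscle myosin Myh11 (-0.46). Gata4 and Cd68 were not called without wild-type replicate 3 (adjusted p = 0.0601 and 0.0544). No sum overlapped between the groups for the cumulus, immune or oviduct markers. A sum weighs the brightest members most, and the median member of these lists differed by only -0.01, 0.07 and -0.02 in turn. The part of these markers in the results was not tested. In RNA of whole samples, fewer cells of a type and less RNA per cell cannot be told apart.

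The composition of promoters was compared between the directions at matched signal. In the brightest band the median G plus C share over the 300 bases around the start was 61.3% for genes called higher, 64.7% for those called lower and 62.0% for those not called. In the dimmest band the medians were 55.2%, 56.5% and 55.7%. The medians of genes called lower exceeded those of genes called higher in all 4 bands, by 1.3 to 3.4 points. The observed over expected ratio of CpG had a median of 0.465 for genes called higher and 0.583 for genes called lower in the dimmest band, and 0.436 for genes not called there. From 8 to 10 these medians were 0.795, 0.793 and 0.818. The motif TATAAA, searched on both strands and found in 14.2% of all 27025 promoters, was held by 9.36% of genes called higher, 5.25% of those called lower and 6.10% of those not called from 8 to 10. In the dimmest band the shares were 7.14%, 8.75% and 12.9%. Genes are not independent, so no test was made.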

How the data were processed

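RNA was hybridised to 1 array per sample. The authors deposited 1 log2 signal per probe set and array, made with GCRMA per the submitters' processing notes; the sources used here give neither its version nor the array's genome build. Those values were used without further normalization. Genes came from the platform annotation: 21789 of 35557 probe sets name 1 gene, 1621 several and 12147 none. Probe sets with 1 gene and a log2 signal of 4 or more in at least 3 of the 6 arrays compared were tested two-sided in R 4.3.3 with limma 3.58.1 and statmod 1.5.0. All 9 arrays entered the linear model without covariates, and eBayes used its trend and robust options. Groups follow the genotype in the sample titles. The test was run on simulated data with independent noise for each probe set. That run cannot say how far the calls made here hold.

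Genes named by band are the 4 largest increases and 4 largest decreases in each, among called probe sets whose groups do not overlap. Predicted and RIKEN-type names were skipped, and Dicer1, Tstd3 and Rangap1 were added. Candidates from the lists were the 4 members of each with the lowest adjusted p, called ones first. Not all of these candidates are named in the text, and other members were added after their values were seen. The comparison, its members and the lists were chosen with earlier results of these data known. Of the genes with several tested probe sets (879), 115 had some called and some not, and 0 were called in opposite directions. Of the probe sets tested, 11 reached the floor through the wild-type arrays alone (2 called) and 14 through the knockout arrays alone (8 called).

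Same-numbered wild-type and knockout arrays deviated from their group means with correlations of 0.143, 0.045 and 0.138. Each of these was the highest for its arrays. The design text names no pairing, so the numbers were not taken as pairs. Protein length was planned but not analysed here, and 1 of the gene lists is not reported here. Promoter windows came from RefSeq (GRCm38.p6), matched by Entrez identifier. Alternatives changed the floor, scaling, arrays in the fit, eBayes settings, array weights, replicate block, probe sets per gene, threshold and each array in turn.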

Additional observations from a re-analysis of the deposited data

Results flagged for a closer look

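Probe sets outside the gene table also carried calls in the same comparison, in a separate fit of all probe sets over the floor. Of 6912 tested probe sets that the platform annotation leaves unnamed here, 302 were called higher in the Dicer knockout and 127 lower (6.21% in all). Of 1246 that name several genes, 178 were called higher and 49 lower (18.2%). In both classes increases outnumbered decreases, whereas among probe sets naming 1 gene decreases outnumbered increases (973 higher and 1158 lower). The latter counts come from the main fit of probe sets naming 1 gene alone, and the classes were not matched on signal.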

How the results depend on the processing

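The number of called probe sets was 2131 as reported and ranged from 1615 (only the 6 arrays of both groups in the fit) to 2650 (quantile normalization) under the alternatives other than a stricter threshold or a left-out array. With each array left out in turn it was 1355 to 2127, and the number lower was 651 to 1133. Quantile normalization gave 36.0% of calls as increases, against 45.7% as reported. At an adjusted p under 0.01, 1058 probe sets were called, 572 higher and 486 lower. Counts at that threshold were 8 ribosomal proteins, 17 respiratory chain genes and 1 proteasome gene higher, and 4 coat, tether and SNARE genes and 2 genes of the unfolded protein response lower. With 6 arrays in the fit, 5 proteasome genes were higher and 4 coat, tether and SNARE genes lower. The latter numbered 18 after quantile normalization and 7 with the replicate block. Plain eBayes left 2 genes of the unfolded protein response lower. Leaving out each array gave 9 to 23 ribosomal proteins, 18 to 43 respiratory chain genes and 4 to 9 proteasome genes higher, and 4 to 11 coat, tether and SNARE genes and 2 to 6 genes of the unfolded protein response lower. Counts of E2 enzymes and the amino acid stress response (higher), of ubiquitin-specific proteases (lower) and of solute carriers (higher) stayed within 1.5 times of the reported ones at the threshold of 0.05. With signal from the Dgcr8 knockout arrays, increases were 70.1% of calls under 6, 53.0% from 6 to 8 and 29.6% at 10 and over; from the wild-type arrays they were 72.9% under 6 and 28.9% at 10 and over. The replicate number as a block gave 1933 calls; each array correlated best with its own number in the other group, a hint from the data and not from the design. Of 337 called genes followed through the alternatives, 222 stayed called at 0.05 in every setting that tested their probe set, and 0 changed direction. A probe set left out by a setting's filter was not counted as lost. The cause of these shifts was not tested, and fewer arrays widen the error by construction. The planned protein length comparison and its alternatives were not run. Signals near the floor limit what can be read from dim genes.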
